A study of Homo sapiens with 4 samples.

Results

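The Sprouty and SPRED genes encode intracellular feedback inhibitors of growth factor signalling. The 6 genes SPRY1, SPRY2, SPRY4, SPRED1, SPRED2 and SPRED3 were taken by name from the 51103 genes in the deposited tables. Polyadenylated RNA came from AGS, an established line of human gastric adenocarcinoma cells. One group of 2 libraries, labelled FGF2, came from AGS cells given recombinant human fibroblast growth factor 2 at 20 ng/mL for 24 h. The other group of 2 libraries is labelled NC, and the labels attach the same FGF2 treatment text to it, which leaves the actual treatment of the NC cells unstated. The series asked which AGS genes differ with FGF2. The cells of both groups were grown in medium with fetal bovine serum, which itself supplies growth factors, and all libraries come from 1 cell line.

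FGF2 binds FGF receptors on the cell surface, which recruit the adaptors FRS2 and GRB2 and the exchange factor SOS1. SOS1 loads RAS with GTP, which starts the kinase cascade that ends in ERK. Active ERK induces genes whose products turn the pathway down again, and Sprouty and SPRED genes are classical members of that negative feedback. Sprouty proteins carry a conserved tyrosine near the amino terminus that binds the ubiquitin ligase CBL, and a cysteine-rich carboxy-terminal domain that takes them to membranes. SPRED proteins share that carboxy-terminal domain and add an EVH1 domain at the amino terminus, through which SPRED1 binds neurofibromin (NF1), the protein that switches RAS off.

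The 2 libraries of a group were not separate samples. FGF2 library 1 had a higher count than the deeper FGF2 library 2 at 2 of 22043 genes, where 1192 genes would be expected of separate libraries, and in the NC group the numbers were 2 of 22485 genes and 1214 expected. Library 2 thus behaved as if it included every read of library 1, and each group was treated as 1 sample (n = 1). No difference below has a check by separate replicates, and no p-value is given. Library totals ran from 13790335 to 14073340 counts for the shallower libraries and from 27325697 to 27598608 for the deeper ones. Epithelial keratin mRNA was abundant, with KRT18 at 199.1 FPKM in FGF2 library 2 and 193.0 FPKM in NC library 2, but the epithelial markers CDH1 (4 and 20 counts) and EPCAM (36 and 82 counts) were near 0. Of the 4 epithelial markers that passed a filter on low counts, KRT19 was called higher by the 1.5-fold rule given below (log2 fold change 0.88), and KRT18 (0.13), KRT8 (-0.42) and EPCAM (-1.11) were not called. FPKM is the count scaled by exon length and by the library total. Among 15 fibroblast, endothelial and blood markers, 7 passed that filter, with 0 higher and 3 lower (COL1A1, COL3A1 and PDGFRB), where 7.4% of all kept genes were called lower. COL3A1, at 6 counts in both FGF2 libraries, passed that filter through the NC reads. Their summed level was 85.0 FPKM in both FGF2 libraries and 142.8 to 145.9 FPKM in the NC libraries, and COL1A2, KDR and CD3E were at 0 counts. The part of these markers in the results below was not tested.

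All 6 Sprouty and SPRED transcripts stood higher in the FGF2 sample than in the NC sample, with values from 1.86-fold (SPRED2) to 10.0-fold (SPRY4). To judge size against read noise, each group's reads were parted into 2 disjoint sets, library 1 and library 2 less library 1. A gene was called higher when both FGF2 sets lay above both NC sets by at least 1.5-fold. By that rule 6 of the 6 genes were called higher, against a background of 3.61% of the 14043 genes kept by a filter on low counts (507 genes), while 7.4% were called lower. At a 2-fold bound 3 of the 6 were called, SPRY2, SPRY4 and SPRED3, against 1.57% of all kept genes called higher and 2.98% called lower. Both counts include SPRED3, which had 7 counts in NC library 1 and passed the filter through the FGF2 reads. That condition favours a call higher, so the call of SPRED3 adds little to either count. The median log2 fold change of the 6 was 1.19, beside 0.00 over all kept genes. In bulk RNA, a change in all cells cannot be told apart from a change in some of them.

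**Figure D1:**
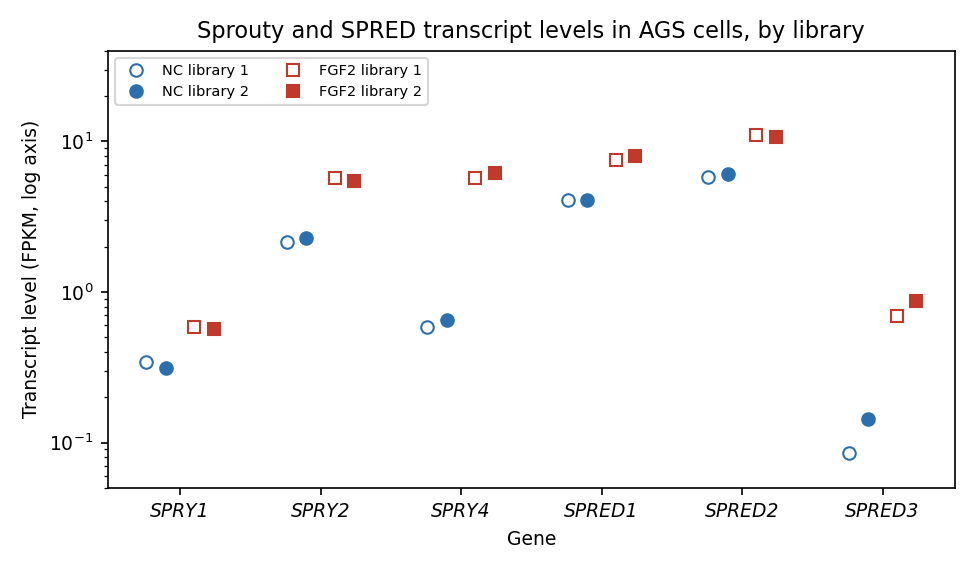
Transcript level of each Sprouty and SPRED gene in FPKM (log axis) in the 4 libraries, with circles for NC, squares for FGF2, open symbols for library 1 and filled symbols for library 2. For every gene both FGF2 values lie above both NC values, which follows from the 1.5-fold calls (3.61% of all kept genes called higher). The widest gap is that of SPRY4, at 5.70 and 6.15 against 0.584 and 0.647 FPKM.

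SPRY4, a Sprouty that restrains the ERK cascade, was higher by 10.0-fold in the deeper libraries. Its gene (ENSG00000187678) lies on the minus strand of chromosome 5, 142310427 to 142326455 (GRCh38, GENCODE v29). It had 516 and 1115 counts in FGF2 libraries 1 and 2, and 54 and 116 counts in NC libraries 1 and 2. In FPKM these were 5.70 and 6.15 with FGF2 against 0.584 and 0.647 in NC, so both FGF2 values were far above both NC values. The 2 values within a group share reads, here and for the genes below, so their closeness says nothing of how cultures would vary. That the groups do not overlap follows from the 1.5-fold call of each gene, so it is no further result. The share of all kept genes without such overlap was not counted. The log2 fold change was 3.33 (95% counting interval 3.05 to 3.62), and it ran from 3.08 to 3.55 over the 4 pairings of disjoint read sets. Of the 14043 kept genes, 0.142% had a higher fold change. The antisense gene SPRY4-AS1 had 5 counts in FGF2 library 2 and 0 in both NC libraries, too few to give a fold.

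SPRY2, the Sprouty best known for binding CBL and GRB2, was also higher. Its gene (ENSG00000136158) lies on the minus strand of chromosome 13, 80335976 to 80340951. Its counts were 238 and 458 in FGF2 libraries 1 and 2, and 92 and 190 in NC libraries 1 and 2. The levels were 5.68 and 5.46 FPKM with FGF2 and 2.15 and 2.29 FPKM in NC, with no overlap between groups. Its log2 fold change was 1.33 (1.09 to 1.59), with 1.18 to 1.48 over the read set pairings, a 2.52-fold difference. On this per-length scale SPRY2 was above SPRY4 in the NC sample (2.29 against 0.647 FPKM), and below it in the FGF2 sample (5.46 against 6.15 FPKM).

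SPRY1, which like SPRY2 is induced by FGF signals in many embryonic tissues, had the lowest level of the 3 Sprouty members. Its gene (ENSG00000164056) lies on the plus strand of chromosome 4, 123396795 to 123403760. Its counts were 32 and 62 with FGF2 and 19 and 34 in NC, which is 0.586 and 0.567 FPKM against 0.341 and 0.314 FPKM. The FGF2 values lay above the NC values without overlap, but at so few counts that the size is poorly known. The log2 fold change was 0.92 (0.31 to 1.58), and 0.74 to 1.10 over the read set pairings.

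SPRED1, which brings neurofibromin to the membrane to inactivate RAS, was higher by about the same factor in every pairing of read sets. Its gene (ENSG00000166068) lies on the plus strand of chromosome 15, 38252326 to 38357249. Its counts were 852 and 1814 with FGF2 and 477 and 921 in NC, or 7.48 and 7.96 FPKM against 4.10 and 4.08 FPKM. The groups did not overlap and the log2 fold change was 1.04 (0.93 to 1.16), with a range of 0.95 to 1.13 over the read set pairings. It had the narrowest such range of the 6 genes.

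SPRED2, a close relative of SPRED1 that also restrains RAS and ERK activation, had the highest level of the 6 genes and 1 of the smaller fold changes. Its gene (ENSG00000198369) lies on the minus strand of chromosome 2, 65310851 to 65432637. It had 783 and 1529 counts with FGF2 and 422 and 859 in NC. That is 11.0 and 10.7 FPKM against 5.82 and 6.10 FPKM, with both FGF2 values above both NC values. The log2 fold change was 0.90 (0.78 to 1.02), and 0.78 to 1.00 over the read set pairings.

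SPRED3, the family member known to lack a working KIT-binding domain, went from a trace level to a low one. Its gene (ENSG00000188766) lies on the plus strand of chromosome 19, 38388421 to 38399587. It had 56 and 142 counts with FGF2 and 7 and 23 in NC, or 0.692 and 0.877 FPKM against 0.0848 and 0.144 FPKM. Both FGF2 values were above both NC values, but the read sets of each group were far apart. The log2 fold change was 2.67 (2.05 to 3.40), and it ran from 1.81 to 3.62 over the read set pairings, the widest range of the 6. With 7 counts in NC library 1, SPRED3 passed the filter on low counts through the FGF2 reads, a condition under which a called gene tends to be called higher.

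**Figure D2:**
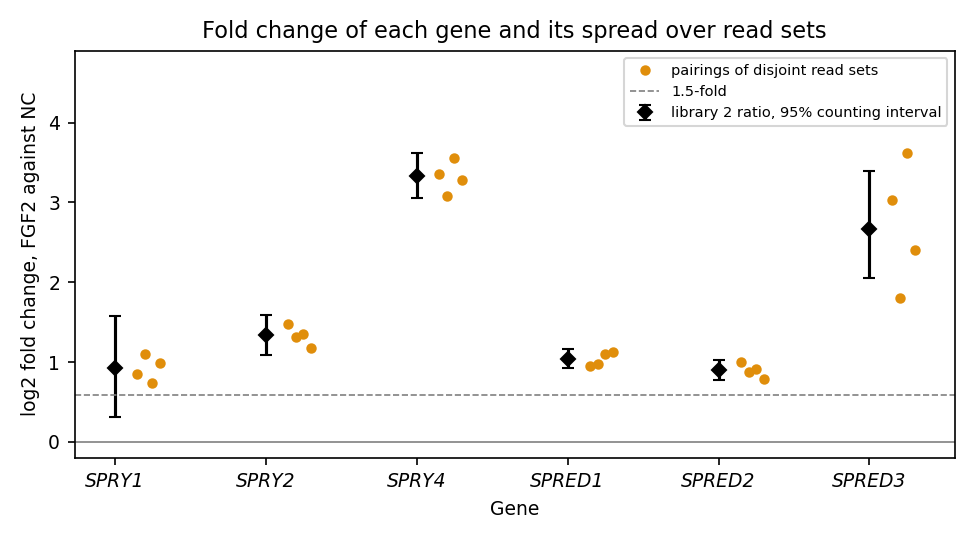
Log2 fold change of FGF2 against NC for each gene, with black diamonds for the deeper libraries, bars for the 95% counting interval, and orange points for the 4 pairings of disjoint read sets. All orange points lie above the dashed line at 1.5-fold, and the spread is narrowest for SPRED1 (0.95 to 1.13) and widest for SPRED3 (1.81 to 3.62).

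The counting intervals are exact Clopper-Pearson intervals and cover counting error only. They are too narrow, because the disjoint read sets of a group differed by a chi-square per gene of 2.42 (FGF2) and 2.46 (NC) for genes of 10 to 1000 counts, where separate single reads give about 1. With counts divided by 2 the interval of SPRY1 widened to 0.03 to 1.88 and that of SPRED3 to 1.83 to 3.82. None of the 6 genes shares exon sequence with another gene in GENCODE v29 on either strand, and the library kit does not mark the strand.

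Set beside each other, the fold changes fell into an upper and a lower part. The intervals of SPRY4 (3.05 to 3.62) and SPRED3 (2.05 to 3.40) overlapped, so their order is not resolved. Both lay above that of SPRY2 (1.09 to 1.59), also with counts divided by 2 (SPRED3 1.83 to 3.82, SPRY2 0.98 to 1.70). Division by 2 is less than the chi-square of 2.42 and 2.46, so the gap between SPRED3 and SPRY2 is not secure. The intervals of SPRY2, SPRED1 (0.93 to 1.16), SPRED2 (0.78 to 1.02) and SPRY1 (0.31 to 1.58) were not resolved into an order, although that of SPRED2 lay below that of SPRY2 on the counts as deposited. These intervals describe counting error within 1 sample per group, and how far cultures would spread was not measured.

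**Figure D3:**
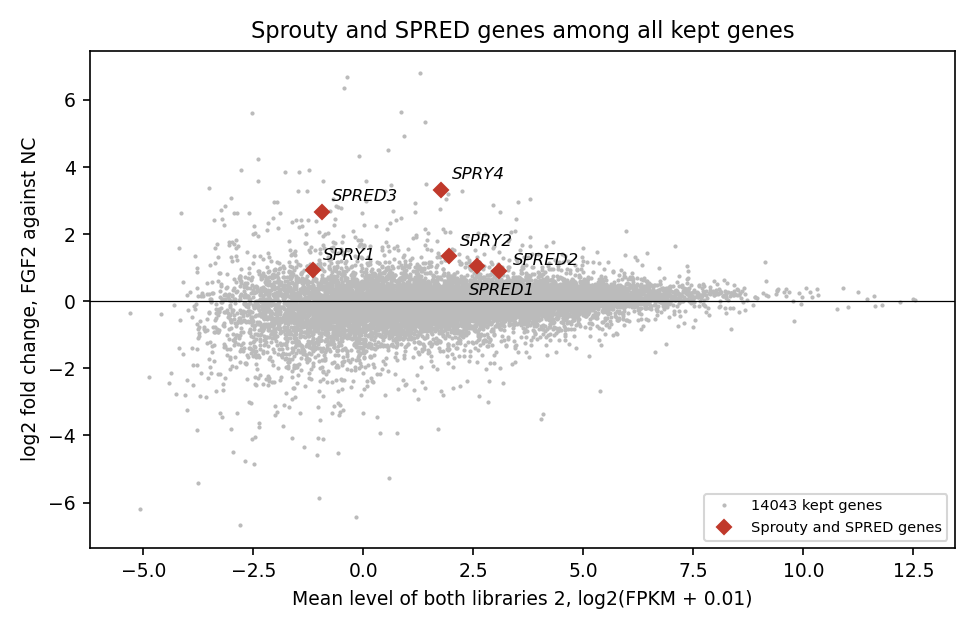
Log2 fold change of FGF2 against NC (vertical) by mean level, log2(FPKM + 0.01) of the 2 deeper libraries (horizontal), for the 14043 kept genes in grey and the 6 Sprouty and SPRED genes in red. SPRY4 stands at 3.33, SPRED3 stands at 2.67, and the other 4 lie between 0.90 and 1.33, with at most 3.09% of kept genes at a higher fold change.

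On the per-length FPKM scale the order of levels in the NC sample was SPRED2 (6.10), SPRED1 (4.08), SPRY2 (2.29), SPRY4 (0.647), SPRY1 (0.314) and SPRED3 (0.144). In the FGF2 sample it was SPRED2 (10.7), SPRED1 (7.96), SPRY4 (6.15), SPRY2 (5.46), SPRED3 (0.877) and SPRY1 (0.567). SPRY4 and SPRED3 each stood 1 place higher than in the NC sample. No neighbours in either order overlapped between their 2 read sets, but such ranges can be narrower than counting error. SPRY4 and SPRY2 were almost level in the FGF2 sample, at 5.70 to 6.61 and 5.24 to 5.68 FPKM.

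The summed level of the 6 genes was 31.8 FPKM with FGF2 and 13.6 FPKM in NC, a ratio of 2.34 (2.38 in the shallower libraries). Ratios of FPKM lack the further scaling used for the fold changes. The 3 Sprouty genes summed to 12.2 against 3.25 FPKM, a ratio of 3.75, and the 3 SPRED genes to 19.6 against 10.3 FPKM, a ratio of 1.90. Sprouty transcripts thereby made up 38.4% of the sum with FGF2 and 23.9% in NC. SPRY4 alone went from 4.76% to 19.4% of the sum (4.47% and 18.3% in the shallower libraries). In the deeper libraries SPRY4 supplied 30.3% of the summed difference of 18.2 FPKM, SPRED2 25.6%, SPRED1 21.3% and SPRY2 17.4%. That order moved with the reads used. In the shallower libraries SPRED2 (28.8%) and SPRY4 (28.3%) were level, and in the other reads of library 2 SPRY4 supplied 32.2%, SPRED1 23.9% and SPRED2 22.3%. SPRED2 thus added 4.08 to 5.20 FPKM over these read sets at a log2 fold change of 0.90.

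**Figure D4:**
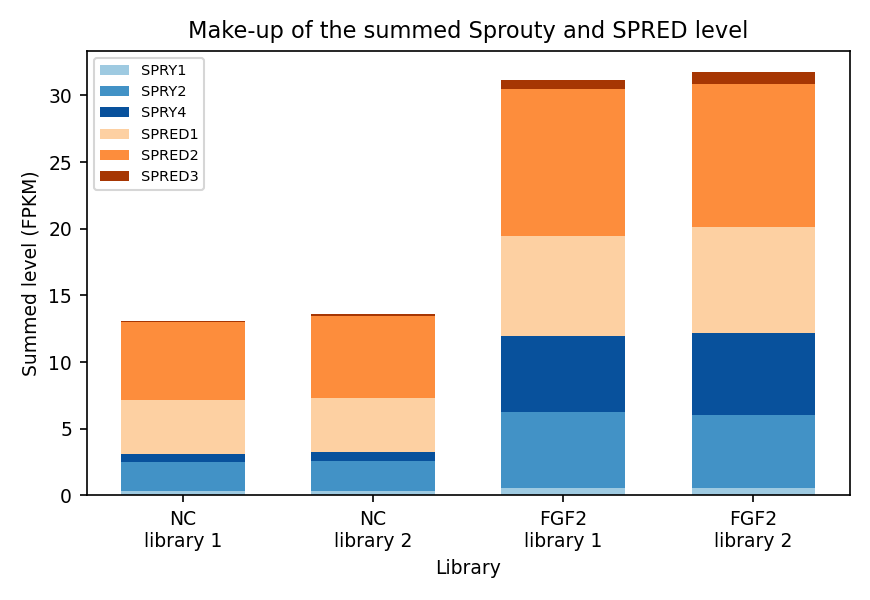
Stacked FPKM of the 6 genes in each of the 4 libraries, with Sprouty genes in blue and SPRED genes in orange. The stacks reach 13.1 and 13.6 FPKM in NC and 31.2 and 31.8 FPKM with FGF2, and the dark blue SPRY4 segment grows from 0.647 to 6.15 FPKM between the deeper libraries.

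Because the 6 genes stood higher together, the DNA just upstream of their RefSeq start sites was searched for letters bound by factors downstream of ERK. The table used (RefSeq, GRCh38.p14) holds 11 windows for the 6 genes, each from 250 bases before to 50 after a start. The ETS core CCGGAA, read by ETV and other ETS factors, was present in 2 of the 11 windows (1 of SPRY1 and 1 of SPRY2), where 17.2% of all 35116 windows hold it. That SPRY1 window belongs to an internal start, and all 250 of its upstream bases are annotated as SPRY1 exon. The more upstream SPRY1 window lacks the ETS core. The AP-1 letters TGANTCA, read by FOS and JUN dimers, were in 2 windows (SPRED2 and SPRED3), against 7.71% of all windows. The capicua letters TGAATGA, read by the ERK-inhibited repressor CIC, were in 1 window of SPRED3, at 2 places, against 4.01% of all windows. The E-box CACGTG was in 0 of the 11 windows (7.26% of all), and the GC box GGGCGG was in 7 (45.0% of all). Both strands were searched, and the ETS, AP-1 and capicua matches of these windows did not overlap one another. A match is a description of the letters and not evidence of binding.

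The upstream stretches of SPRY4 and SPRY2 are shown first, as those of the Sprouty genes called at 2-fold. Each is written 5′ to 3′ on the gene's strand, with the ETS, AP-1 or capicua letters in capitals. For SPRY4, 170 of the 250 upstream bases are annotated as its own exon by GENCODE and are not shown. This RefSeq start lies inside the GENCODE gene, whose most upstream start was not searched. The remaining 80 bases at chr5:142324418-142324497 (minus strand) hold none of the 3 motifs. For SPRY2 the window of its most upstream start, chr13:80341127-80341376 (minus strand), holds the ETS core 142 bases before the start.
SPRY4 upstream: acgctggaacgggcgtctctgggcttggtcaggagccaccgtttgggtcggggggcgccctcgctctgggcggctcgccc
SPRY2 upstream: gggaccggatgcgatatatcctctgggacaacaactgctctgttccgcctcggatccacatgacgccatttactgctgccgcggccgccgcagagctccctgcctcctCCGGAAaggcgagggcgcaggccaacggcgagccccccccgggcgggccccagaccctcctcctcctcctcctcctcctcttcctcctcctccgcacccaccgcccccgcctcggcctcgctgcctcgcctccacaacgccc

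For SPRED3, on the plus strand, the capicua letters begin 192 and 34 bases before an internal start, the second on the opposite strand. The AP-1 letters begin 60 bases before that start. The surroundings of these matches are chr19:38389588-38389616, chr19:38389746-38389774 and chr19:38389720-38389748. Of the 250 bases upstream of this internal start, 126 are annotated as SPRED3 exon by GENCODE. The window of the more upstream RefSeq start of SPRED3 holds none of the 3 motifs. For SPRED2, on the minus strand, 1 AP-1 match begins 6 bases before an internal start, at chr2:65366767-65366795, and a second begins 35 bases after that start and is not shown.
SPRED3 capicua, distal: cttgatttttgTGAATGAaatgctctctg
SPRED3 capicua, proximal: tgcatccggtcTCATTCAtaaatccggga
SPRED3 AP-1: ccgttgctgggTGACTCAgtgagctttgc
SPRED2 AP-1: taaccctcggaTGACTCAtccggtacaat

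Other genes of the pathway were described by lists, whose difference from one another was not tested. Of 12 kept genes among 13 other feedback inhibitors of ERK or of receptors, 5 were called higher and 0 lower at 1.5-fold, beside 3.61% and 7.4% of all kept genes, with a median log2 fold change of 0.52. The 3 highest were DUSP6, a phosphatase that removes phosphate from ERK, at 3.50 (3.12 to 3.93), DUSP4, a nuclear MAP kinase phosphatase, at 2.76 (2.53 to 2.99), and ERRFI1, an inhibitor of EGF receptors, at 1.46 (1.39 to 1.52). Opposite-strand exons cover 40.5% of the DUSP6 exon sequence, which makes its count uncertain. The fourth Sprouty, SPRY3, was at 5 and 14 counts in the deeper libraries and did not pass the filter. Of 12 kept genes among 13 ERK output genes, 9 were called higher and 1 lower, beside the same 3.61% and 7.4%, with a median of 1.54. They include DUSP4, DUSP6 and PHLDA1 (2.65, 2.52 to 2.79, with 16.5% of its exons under opposite-strand genes). The 1 called lower was EPHA4, an ephrin receptor gene, at -0.71 (-0.95 to -0.48). EGR1 stood as low, at -0.73 (-0.84 to -0.61) and 11.1 against 19.4 FPKM, but fell short of the rule. It was named after its value was seen. The count of genes called lower moved to 2 with library 1 only, with library 2 less library 1 only and with scaling by total count only. The count called higher was 9 in each of these. Over the 14043 kept genes, the counts higher and lower were 1153 and 2040, 1228 and 2106, and 417 and 1229, in that order.

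Among 22 genes from FGF receptors to ERK, through which the signal itself runs, 0 were called higher and 2 lower, with a median of -0.05. These counts are near the background of 3.61% and 7.4% of all kept genes. The 2 called lower were the receptor genes FGFR2 at -2.41 (-2.67 to -2.17) and FGFR3 at -1.25 (-1.44 to -1.07). Of 16 partners of Sprouty and SPRED proteins, 0 were called in either direction, also near background, with a median of 0.15. The count moved with the reads used. It was 1 higher and 1 lower with library 1 only, where 1153 and 2040 of the 14043 kept genes were called. It was 2 higher and 0 lower with library 2 less library 1, where 1228 and 2106 of them were called. With 1 read set per group the rule is looser than the main rule. The largest values were those of SH3KBP1, an adaptor that binds CBL, at 0.77 (0.65 to 0.90) and CAV1, which encodes caveolin-1, at 0.66 (0.61 to 0.71), and both fell short of the rule. These 2 were chosen after their values were seen. NF1, the RAS inactivator that SPRED1 recruits, stood at 0.11 (0.05 to 0.17), 6.68 against 6.53 FPKM. CBL, the ubiquitin ligase bound by SPRY2, stood at 0.29 (0.24 to 0.35), 16.9 against 14.6 FPKM. The capicua gene CIC stood at -0.12 (-0.18 to -0.05), 12.1 against 13.9 FPKM, and 0 of the 3 genes of that repressor were called.

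**Figure D5:**
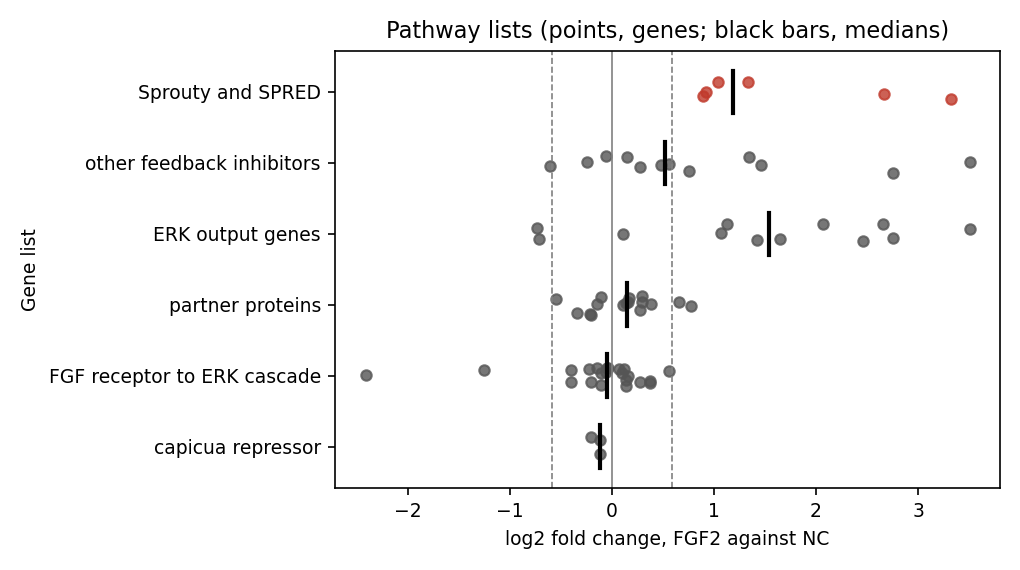
Log2 fold change of FGF2 against NC for each kept gene of the Sprouty and SPRED family and 5 pathway lists, with black bars for medians and dashed lines at 1.5-fold in each direction. The 6 red family points all lie to the right of the upper dashed line, with a median of 1.19. The median is 1.54 for ERK output genes and 0.52 for the other feedback inhibitors. It is 0.15 for the partner proteins, -0.05 for the receptor to ERK cascade and -0.12 for the capicua repressor. In the cascade, FGFR2 (-2.41) and FGFR3 (-1.25) lie left of the lower dashed line.

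Genes with the most similar levels were sought among 10459 other protein-coding genes averaging 50 or more counts over the read sets, by Euclidean distance in log2 scaled FPKM over the 4 read sets. SPRY1 and SPRED3 have too few counts for this. The 2 nearest to SPRY4 were TGM2 (6.47 against 0.824 FPKM, distance 0.57) and DUSP4 (5.81 against 0.908 FPKM, distance 0.83). The 2 nearest to SPRY2 were EMP1 (distance 0.23) and RGMB (0.25), and 45.6% of the RGMB exons lie under opposite-strand genes. Nearest to SPRED1 were AFAP1L1 and PLIN2 (both 0.19), and to SPRED2 they were SIPA1L3 (0.17) and PLAT (0.21). Since only 2 samples underlie the 4 read sets, the distance describes a level and 1 difference and no more.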

How the data were processed

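The authors deposited 1 table per library with raw counts per gene and FPKM values. Per the submitters' processing notes, the tools were HISAT2 and HTSeq 0.13.5 with GRCh38; no source used here names an annotation. The FPKM values deposited by the authors equal the count divided by exon length and library total. Where all libraries had over 20 counts (11923 genes), 99.5% of genes had the merged exon length of GENCODE v29, which supplied coordinates. The NEBNext Ultra kit is named in the labels' protocols.

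Genes were kept with filterByExpr of edgeR 4.0.16 (R 4.3.3) over the 4 disjoint read sets, and scaled by edgeR's trimmed mean of M values (TMM). Fold changes are log2 ratios of scaled counts of both libraries 2, with 0.5 added. FPKM values, their sums and their ratios are not TMM scaled, so a ratio of FPKM differs a little from the fold change beside it. The median log2 fold change of all kept genes was -0.083 with scaling by total count only and -0.003 with TMM. On counts simulated for FGF2 against NC (14202 genes kept), the 1.5-fold rule called 91.2% of 80 genes raised 2-fold, 96.7% of 60 raised 3-fold, 95.0% of 60 lowered to 0.5-fold and 1.05% of 14002 unchanged genes. The simulated read sets all came from the NC profile, with a variance of 2 times the mean and no difference between cultures. That is less spread than the 2.42 and 2.46 seen between read sets. The 1.05% is therefore not a rate of false calls between cultures. No test was run on 2 against 2 libraries, because they share reads. The 6 members were taken by name and not by a measured value, but they, the lists and the rules were chosen with earlier results of these data known. Named genes were the members, their antisense genes, up to 3 called genes per direction and list, the fixed examples DUSP6, CIC, NF1 and CBL, and the 2 nearest genes per member. Of the 15 other-cell markers and the 5 epithelial markers, further genes were named as checks of the cells. Alternatives were other read sets, scalings, filters, bounds and log2(FPKM + 1) or log2(FPKM + 0.1).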

Additional observations from a re-analysis of the deposited data

How the results depend on the processing

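The 6 genes stayed higher under each alternative run. With scaling by total count only or DESeq2 size factors, and with no filter, 6 of 6 were called. The same 6 were called with 1 read set per group and at 1.2-fold. Those calls follow from the main rule, so they are no further check. The mean of both libraries also called 6, by a looser rule on the same reads. The 2-fold bound called 3. A mean of at least 50 counts left SPRY1 and SPRED3 untested. Over other read sets, scalings and filters, SPRED3 ran from 2.40 to 3.02 and SPRY4 from 3.24 to 3.36. On log2(FPKM + 1), which understates low genes, the values were 0.25 for SPRY1, 0.97 for SPRY2, 2.12 for SPRY4, 0.82 for SPRED1, 0.73 for SPRED2 and 0.72 for SPRED3, and SPRED3 was at 2.00 on log2(FPKM + 0.1). Genes called higher and lower over all genes were 507 and 1039. They became 1153 and 2040 with library 1 only, 1228 and 2106 with library 2 less library 1 only, and 1027 and 1873 with the mean of both libraries, where fewer read sets had to pass. They were 310 and 621 with a mean of at least 50 counts and 1172 and 2002 with no filter. At 1.2-fold they were 1644 and 2246, and at 2-fold 220 and 418. In the 57 genes of the 5 pathway lists, 12 were higher and 3 lower, beside 3.61% and 7.4% of all kept genes. At 1.2-fold these were 20 and 5, beside 11.7% and 16%. With library 1 only, with library 2 less library 1 only and with the mean of both libraries, 5 were lower. In none of these settings did the share lower exceed that of all kept genes. No paired analysis was possible because the results come from no test, with 1 sample per group. Depth limits SPRY1 and SPRED3 most.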
